A study of Mus musculus with 3 samples.

Results

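The cytoplasmic ribosomal protein genes were taken as every row of the 3 deposited matrices whose symbol is Rpl or Rps followed by a digit, or Rplp0, Rplp1, Rplp2 or Rpsa, without the Rps6k kinases and without symbols that carry -ps. They numbered 87 of 28692 listed genes in the first and second runs and 86 of 32285 in the third, where Rpl6l is not listed. Of these, 77 are standard subunits, 31 of the small and 46 of the large subunit, and 10 are paralogs or genes with a like name, of which Rps19bp1 is not a ribosomal protein. All cells were thymocytes of 6-week-old C57BL/6 mice with no treatment, pooled from 4 thymi for each run and measured with 10x Genomics 3' single-cell RNA sequencing. Run 1 was sorted for all CD4-CD8- (DN) thymocytes and γδ T cells, run 2 for DN1 and DN2 cells without surface TCRγδ, and run 3 for DN1 and DN2, DN3 and γδ cells that were sorted apart and mixed afterwards. By the paper's gating, cells with surface B220, CD11b, CD11c, NK1.1 or TCRβ were also excluded. Each sort is 1 library, so the 3 runs differ in sort as well as in batch, and cells of a run are not replicates.

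The ribosome of the cytoplasm is built in the nucleolus from ribosomal RNA and about equal amounts of each subunit protein, and the messages of these proteins are among the most abundant of a growing cell. Many of them begin with a C followed by a run of pyrimidines at the first base of the message, the 5' TOP tract, through which mTOR and the RNA-binding protein Larp1 set how much they are translated. In the thymus, DN2 cells divide, DN3 cells stop dividing while they rearrange the β chain of the T cell receptor and divide again once it is expressed, and loss of the large subunit protein Rpl22 is known to hold back αβ T cells.

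The sequence around the start shows how far that tract can be read from the annotation. Of the members, 69 had a start in the RefSeq table (GRCm38.p6), and in 29 of them (42%) a C followed by at least 4 bases of C or T began within 5 bases of an annotated start on the transcribed strand. The share was 18.6% over all 27025 genes of the table, 20.3% over 69 mitochondrial ribosomal protein genes, and 43.3% over the 60 standard subunits with a start. Windows of 30 bases are given 5' to 3' from 10 bases before the annotated start for members described below, first those with the tract, in capitals, and then those without it.
Rps27, chr3:90213629-90213658, minus strand: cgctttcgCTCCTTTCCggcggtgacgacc
Rps27l, chr9:66946076-66946105, plus strand: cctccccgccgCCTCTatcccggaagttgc
Rpl38, chr11:114668570-114668599, plus strand: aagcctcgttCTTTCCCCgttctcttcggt
Rps21, chr2:180257369-180257398, plus strand: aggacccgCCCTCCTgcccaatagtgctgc
Rps2, chr17:24720053-24720082, plus strand: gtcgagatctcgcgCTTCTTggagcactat
Rpl22l1, chr3:28805498-28805527, plus strand: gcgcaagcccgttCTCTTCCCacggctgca
Rps27l, second start, chr9:66946403-66946432, plus strand: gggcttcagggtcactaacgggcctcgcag
Rps21, second start, chr2:180257439-180257468, plus strand: agtgagcaggtaggcctcggtgcgggctgt
Rps19, chr7:24884582-24884611, plus strand: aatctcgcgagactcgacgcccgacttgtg
Rpl22, chr4:152325716-152325745, plus strand: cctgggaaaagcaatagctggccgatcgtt
Rps27 and Rps27l encode close versions of the same small subunit protein from different chromosomes. The tract is in the window of Rps27 and in that of 1 of 2 annotated starts of Rps27l and of Rps21. Rps19, with 3 annotated starts, and Rpl22, with 2, had no tract that began within 5 bases of any of them, and 1 window of each is printed. A window of each that is not printed holds such a stretch farther from the start.

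Cells with 500 to 5000 genes and at most 7% of UMIs from mt- genes were kept, 5516 of 5527 in run 1, 8852 of 8887 in run 2 and 7511 of 8869 in run 3. They held 39803308, 52629426 and 78289786 UMIs, with medians of 5990, 4844 and 8507 a cell. The libraries shared 75 cell barcodes, 72 of them between runs 1 and 2. Cells were placed by UMIs of stage genes (DN2a: Il2ra with Kit or Cpa3; DN2b: the same with Ptcra or Rag1; DN3: Ptcra with Il2ra, Rag1 or Notch3; γδ: Trdc with Sox13, Etv5, Blk or Id3) and by 10 cell cycle genes, with at least 3 detected for cycling and at most 1 for resting. A stage and cycle class was used where it held at least 50 cells of a run. Of the genes that no gate used, Spi1 and Notch1 are given for DN2a and DN3, and none for the other gates. In the resting classes of the 3 runs Spi1, a factor of uncommitted progenitors, stood at 17.5 to 42.8 CPM (UMIs of a gene relative to all UMIs of the class, on the usual CPM scale) in DN2a and 1.96 to 7.06 in DN3. Notch1 stood at 115 to 293 in DN2a and 206 to 546 in DN3, ranges that overlap. A class defined by at least 2 of 7 NK-receptor and cytotoxic genes went against its label, since in run 1 it still held Ptcra at 206 and Il2ra at 304 CPM. There Gzma was detected in 95.4% and Nkg7 in 97.8% of its cells but Klrd1 in 2.21%, and the class is called the Gzma/Nkg7 class after these genes. Its gate came before the stage gates and took 1390 of 5516, 4918 of 8852 and 4300 of 7511 cells in runs 1 to 3. The stage classes thus leave out cells with at least 2 of the 7 genes. In run 3 DN2a held 430 cells, DN3 800 and γδ 305, next to 1188, 1337 and 881 with the narrow gate described below. Run 2 was sorted for DN1 and DN2 cells without surface TCRγδ, yet 575 of its cells fell in the DN3 gate and 396 in the γδ gate. The gates read transcripts and not the sorted surface markers, so whether these cells go against the sort of that run cannot be told. In this run the paper used Rag1, Notch3 and Ptcra, among other genes, to part DN2b from DN2a cells. It also reported high Sox13 in DN1d cells. The names DN3 and γδ below stand for the transcript gates. The number of members called without run 2 is given with each comparison made with these gates. Cells with B cell, myeloid, erythroid or stromal genes were 11, 44 and 565 in the 3 runs and were left out of the comparisons.

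Ribosomal protein genes took close to the same share of each library. The share was 29.67% of UMIs in run 1, 30.36% in run 2 and 30.80% in run 3, with 12.7% to 13.9% in the standard small subunit genes and 16.5% to 16.7% in the large. Among single cells the central 80% ran from 25.4% to 34% in run 1, from 25.6% to 37.1% in run 2 and from 24.9% to 36.4% in run 3. Intervals and limits given here cover counting error only.

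Members differed in level by less than 10-fold among the 77 standard subunits. The highest was Rpl41, the smallest large subunit protein, in run 1 at 9349 and run 2 at 8103 CPM, and Rps24 in run 3 at 7517. The lowest were Rpl30 at 1197, Rpl5 at 1214 and Rpl4 at 1116 in the same order of runs, which made the highest 6.67 to 7.81 times the lowest. Reads come from the 3' end, so these levels count messages and were not divided by length.

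Most paralogs were below the lowest standard subunit, and some were all but absent. Rpl22l1, the paralog of Rpl22, stood at 1668, 1827 and 833 CPM in the 3 runs, next to 1312, 1375 and 1824 for Rpl22 itself, so that the paralog was above Rpl22 in runs 1 and 2 and below it in run 3. Rps27l stood at 798, 618 and 323. Rpl36al, which encodes a protein almost identical to that of Rpl36a, stood at 1039, 927 and 987, while Rpl7l1 reached only 106, 75.1 and 66.4 and Rps19bp1 84.4, 57.6 and 53.1. Rpl3l, the muscle version of Rpl3, and Rpl39l, the germ cell version of Rpl39, had 0.477 to 1.56 CPM. Rpl10l, also known from the testis, had 1, 3 and 0 UMIs, and 0 of 7511 cells allows a share of up to 0.0399% of cells with a UMI, which does not limit how many cells express the gene. Rps27rt matches Rps27 almost completely and stood at 895, 920 and 70 CPM. How reads shared with Rps27 were assigned was not tested, so this level is uncertain.

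In resting DN3 cells, 16 of 83 members differed by more than 2-fold between run 3 and run 1 and 14 between run 3 and run 2, but 0 between runs 2 and 1. The 83 leave out Rpl39l, Rpl3l, Rpl10l and Rpl6l. The same count over all genes was not made, so these differences are not shown to be particular to the members. Rpl4 stood at 3476, 2991 and 967 CPM, Rps27 at 7594, 7122 and 2908, and Rps21 at 1146, 1516 and 3166. Run 3 was above the other runs for some members and below for others. Gene lists also differed between run 3 and the others, and the part of the annotation or the kit in this was not tested. All comparisons below were therefore made within runs.

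The share of UMIs moved over a few percentage points between classes. It ran from 27.25% to 32.41% over 10 classes in run 1, from 27.17% to 33.68% over 11 in run 2 and from 29.19% to 33% over 12 in run 3. Resting DN3 cells were the highest class of run 1, at 32.41%, and stood at 33.16% in run 2 and 31.41% in run 3. Cycling DN2a cells were the lowest class of run 1, at 27.25%, and cycling γδ cells the lowest of run 2 and run 3, at 27.17% and 29.19%. Resting type 17 cells, which carried Il17re, Il23r or like genes, held 32.83% in run 2 and 33% in run 3. Cells with at least 2 of Kit, Cd34 and Flt3 but no Il2ra or Ptcra, the gate for early T progenitors, were only 28 and 22 in runs 2 and 3, and held 32.78% (95% Clopper-Pearson interval 32.61% to 32.96%) and 34.96% (34.79% to 35.13%).

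**Figure D1:**
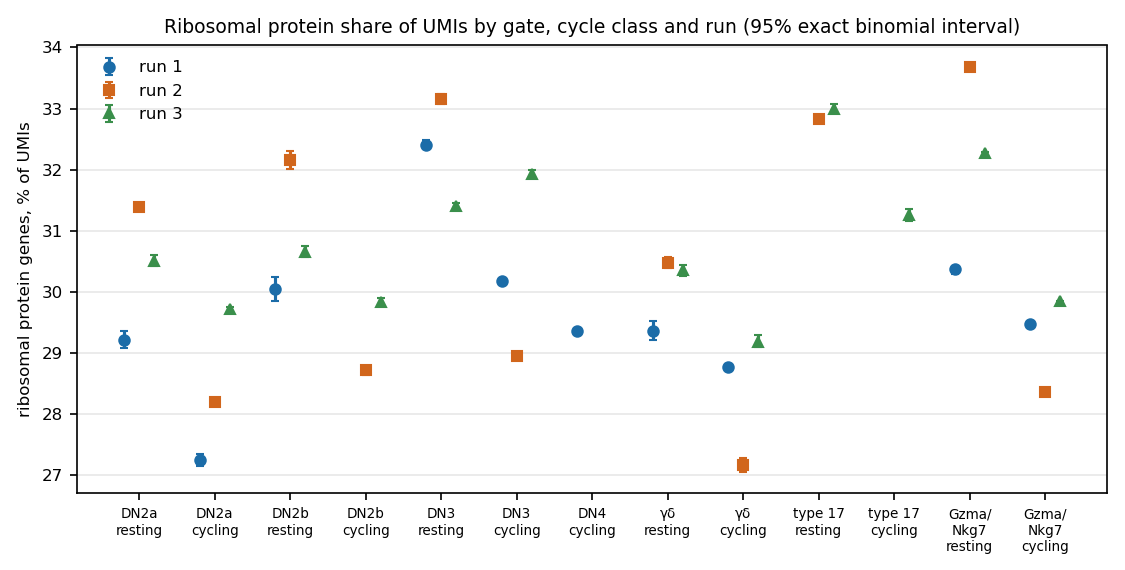
Percent of UMIs in ribosomal protein genes (vertical axis) for each stage and cycle class with at least 50 cells of a run (horizontal axis), with color and shape for the run and bars for the 95% Clopper-Pearson interval of the pooled UMIs. Resting classes lie above cycling classes of the same gate in each run except DN3 in run 3, where cycling cells hold 31.93% and resting cells 31.41%.

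Cycling cells held more ribosomal protein UMIs than resting cells of the same stage, and in all but DN3 cells of run 3 the UMIs of other genes were more numerous by a larger factor in DN3 and DN2a cells. Resting DN3 cells had medians of 961, 1316 and 2030 ribosomal protein UMIs in runs 1 to 3, and cycling DN3 cells 2918, 2570 and 4299. These are 3.04, 1.95 and 2.12 times as many, beside 3.49, 2.44 and 1.93 times as many UMIs of all other genes. In DN2a cells the ratios were 1.67, 1.57 and 1.75 for ribosomal protein UMIs and 1.94, 1.84 and 1.78 for the others. Every cycling class lay above the resting class of its gate on both counts. The cycle classes rest on the number of cycle genes detected, so cells with more UMIs pass as cycling more readily. The part of this in the ratios was not tested. RNA content and capture per cell cannot be told apart in these data.

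**Figure D2:**
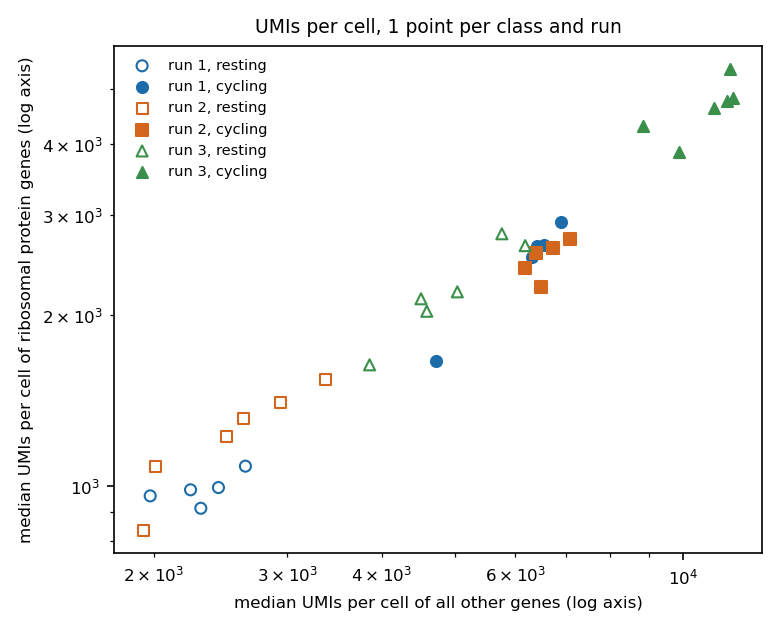
Median UMIs per cell of ribosomal protein genes (vertical, log axis) against all other genes (horizontal, log axis), 1 point for each stage and cycle class with at least 50 cells of a run, open for resting and filled for cycling. Cycling classes lie higher on both axes in each run, as for DN3 in run 1 with 2918 against 961 ribosomal protein UMIs.

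As a share, the ribosomal protein genes were lower in cycling than resting DN2a cells in 3 of 3 runs, with a difference of -1.98 ± 1.2 percentage points (mean ± SD over 3 runs; 29.22% against 27.25%, 31.39% against 28.2% and 30.51% against 29.72%). In DN3 cells the difference was -2.23, -4.21 and 0.521 points, so run 3 went the other way with the fixed gates. The sign in run 3 depends on the gate: it was -0.322 points with the narrow NK-receptor gate described below (-1.92 and -4.69 in runs 1 and 2) and -0.47 with 2 UMIs asked of a gate gene. Resting DN3 cells were above resting DN2a cells by 3.19, 1.76 and 0.899 points, and resting γδ minus resting DN3 cells gave -3.04, -2.68 and -1.05 points (29.37%, 30.48% and 30.36% in γδ). With the fixed gates 4 of these 5 within-run comparisons, with the Gzma/Nkg7 class against γδ counted in, had the same sign in 3 of 3 runs. A two-sided exact sign-flip permutation test over 3 runs cannot go below p = 0.25, which each of the 4 reached, and DN3 cycling against resting gave p = 0.5 (exact), or 0.25 with the narrow gate. Mitochondrial (mt-) UMIs moved too, with cycling minus resting differences of -1.39 to -0.972 points in DN3 and -0.581 to -0.448 in DN2a, of 0.354 to 0.546 between resting DN3 and DN2a and of -1.38 to -0.566 between resting γδ and DN3 cells, and their part in the share was not tested.

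Single members were then compared with edgeR on UMIs summed for each class and run, with run as a block. Of the 86 members listed in all runs 84 passed the filter on low counts, and Rpl10l and Rpl3l did not. The 5 comparisons share classes (resting DN3, DN2a and γδ cells each serve more than once), so they are not independent of each other. Cells of a class in a run come from the same pool of 4 thymi. With run as a block, adjusted p-values rest on how class differences vary from run to run, pooled over all classes of the fit. They do not measure the spread between mice or that of the compared classes alone. A fit without the block leaves the differences between runs in the spread. Calls lost in such a fit thus do not show that a within-run difference is weak.

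In cycling against resting DN3 cells members rose and fell in equal number with the fixed gates, while 41 of 60 ribosome biogenesis genes rose. Of the 84 members 22 passed an adjusted p of 0.05 (edgeR quasi-likelihood test, Benjamini-Hochberg), 11 higher and 11 lower, or 26.2%, against 40.1% of all 10574 genes tested, 18.5% higher and 21.6% lower. Their median log2 change was 0.02, beside -0.10 for all genes tested. With library totals in place of TMM scaling these medians were -0.04 and -0.16, and the calls were 9 higher and 25 lower. The direction of a small change thus depends on the scaling. The members lay 0.12 above the median of all genes. A change of scaling moves all genes of a comparison by nearly the same amount, so this gap is no check on the scaling. With the narrow gates 16 were higher and 6 lower, against 44% of all 10857 genes, and there the split was 14 and 14 with size factors and 9 and 31 with library totals. The count was 17 (13 higher, 4 lower) without run 2 and 7 (2 higher, 5 lower) without run 3. Without the block it was 0.

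Rps14, a protein of the small subunit platform, fell the most among standard subunits. It had 10560, 9126 and 8007 CPM in resting DN3 cells and 6920, 6116 and 6433 in cycling ones. The classes did not overlap, and the log2 change was -0.44 ± 0.07 (SE, adjusted p = 1.82e-05, edgeR). Rps27 had 7594, 7122 and 2908 in resting and 5358, 4953 and 2348 in cycling cells (-0.39 ± 0.10), lower in each run but overlapping between runs since run 3 is low in both. Rps24 and Rps28 fell by less, with log2 changes of -0.27 and -0.26. Rps27rt, whose reads may not be separable from those of Rps27, had -0.54.

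Rps27l, a paralog of Rps27 known as a target of p53, rose. It had 536, 619 and 270 CPM in resting DN3 cells and 872, 750 and 456 in cycling ones, a log2 change of 0.63 ± 0.11 (adjusted p = 1.71e-05, edgeR) with an increase in 3 of 3 runs. Rps27 and its paralog thus moved in opposite directions in each run. Rps2, a protein of the messenger RNA entry site, had 3346, 3626 and 4077 in resting and 4081, 3981 and 5414 in cycling cells (0.34 ± 0.11). Rpl14 (0.37), Rpl41 (0.34), Rpl36al (0.25) and Rpl22l1 (0.24) also passed, with Rpl36al above its near-identical Rpl36a (0.04 ± 0.09, not past the test). Rps2, Rpl14, Rpl41, Rps24, Rpl36al and Rpl22l1 lost the call without run 3, and Rps28 and Rpl22l1 without run 2. Rps19bp1, a regulator of SIRT1 and no subunit, rose by 0.56 ± 0.14 on the log2 scale, from 68.6, 41.6 and 48.8 CPM at rest to 93.5, 65.8 and 67.4. The paralogs at the lowest level, such as Rpl39l, gave no usable estimate (2.52 ± 1.68). The P-stalk genes Rplp0, Rplp1 and Rplp2 had -0.12, 0.20 and 0.12 and Rpsa, the laminin receptor homolog of the small subunit, 0.14, none past the test.

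The genes around the ribosome in the same comparison showed another pattern. Of 60 ribosome biogenesis genes 41 rose and 0 fell, with a median log2 change of 0.55. The leading ones were Bysl (1.39 ± 0.22), Nolc1 (1.24 ± 0.14) and Nhp2 (1.04 ± 0.13), which act in small subunit assembly, in nucleolar snoRNP traffic and in the box H/ACA particle. Of 78 mitochondrial ribosomal protein genes, the subunits of the other ribosome of the cell, 44 rose and 1 (Mrpl24) fell, with a median of 0.37. Mrpl42 (1.07 ± 0.12) and Mrpl12 (1.05 ± 0.12) led. Translation factors had a lower median than both of these lists, 0.31, with 24 of 50 higher and 2 lower. Eif5a (0.98 ± 0.12) led, while the elongation factor Eef2 (-0.28) and the eIF3 subunit Eif3f (-0.47) fell. Among 21 growth regulators 3 rose and 4 fell. Those that rose were Larp1b (1.11 ± 0.38), Eif4ebp1, the 4E-binding protein that mTOR inactivates (0.94 ± 0.20 on the log2 scale), and Rheb (0.55 ± 0.11). Mycn (-1.90 ± 0.32), Rptor (-0.92 ± 0.21) and Cdkn1a, the p53 target that stops the cell cycle (-1.53 ± 0.31), were among those that fell. These lists were drawn up with earlier results of the data known, and no test of a list as a whole was made.

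In cycling against resting DN2a cells 3 of 84 members passed the test (3.57%, against 17.4% of all genes, 11.2% higher and 6.19% lower), 1 higher and 2 lower, with a median of -0.03 beside -0.05 for all genes. The 3 were Rps27l, at 628, 639 and 320 CPM at rest and 759, 751 and 408 in cycling cells (0.35 ± 0.11), Rps14, at 7445, 6525 and 5760 at rest and 5937, 5243 and 5055 in cycling cells (-0.21 ± 0.07), and Rps27rt (-0.42 ± 0.14). Their directions were those seen in DN3 cells, and each was the same in 3 of 3 runs. Rps27, whose reads may not be separable from those of Rps27rt, had -0.27 and did not pass. The 3 calls were not firm: 0 were left without run 2 or without run 3. With library totals in place of TMM 19 members passed, all 19 lower. Without the block 0 passed. Of the ribosome biogenesis genes 10 of 60 rose and 1 (Nob1, the nuclease that finishes 18S RNA) fell, and of the mitochondrial ribosomal protein genes 20 of 78 rose and 0 fell.

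The cycle differences in DN3 and DN2a cells were set against each other as a single contrast of the same fit. Of 84 members 0 passed (2 at an unadjusted p under 0.05, and 0 with DESeq2), against 0.00946% of all genes, or 1 of 10574. The larger number of calls in DN3 cells is thus not shown to be a difference between the stages.

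**Figure D3:**
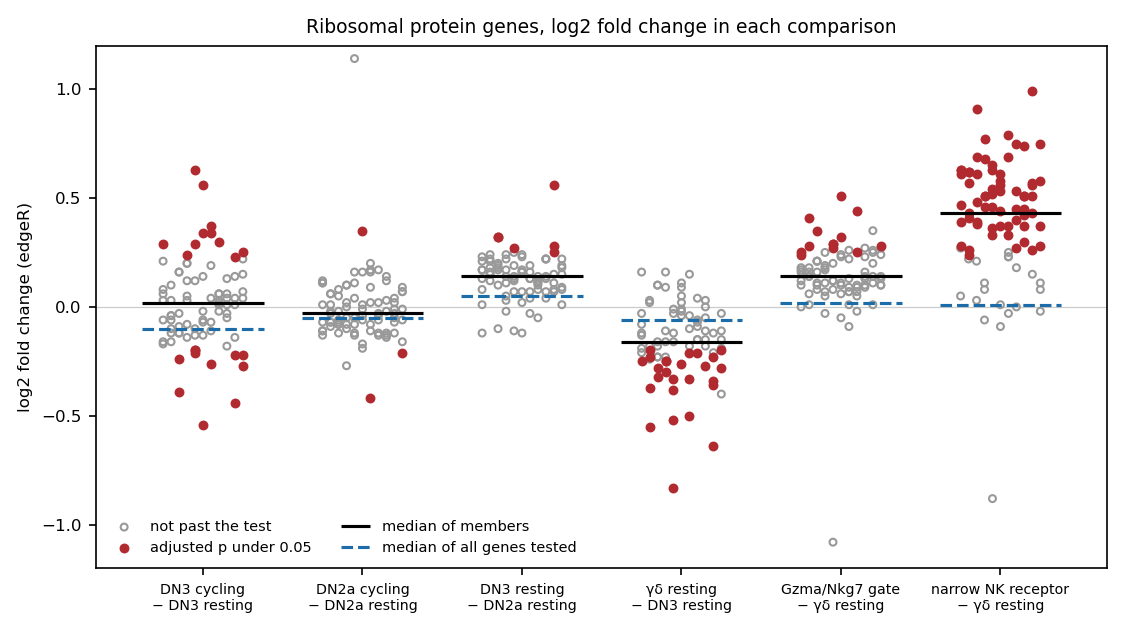
Log2 fold change (vertical axis, edgeR) of each ribosomal protein gene tested, 1 point a gene, in the 5 comparisons and in the one with the narrow NK-receptor gate (horizontal axis), filled where the adjusted p is under 0.05; solid lines are medians of the members and dashed lines medians of all genes tested. Rpl39l lies outside the axis range of -1.2 to 1.2 in 3 comparisons. Members scatter around 0.02 and -0.03 in the cell cycle comparisons, below all genes in γδ against DN3, and around 0.43 in the narrow NK-receptor class.

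Between the resting stages, 6 of 84 members were higher and 0 lower in DN3 than in DN2a cells (7.14%, against 7.91% of all genes, 4.06% higher and 3.85% lower), and 76 of 84 estimates were above 0, with a median of 0.14 beside 0.05 for all genes. Rps14 led by a wide margin: 7445, 6525 and 5760 CPM in DN2a and 10560, 9126 and 8007 in DN3, a log2 change of 0.56 ± 0.07 (adjusted p = 5.10e-06, edgeR), and the log2 ratio of the CPM values, which carry no TMM scaling, was between 0.48 and 0.50 in each run. Rplp0, the scaffold of the P-stalk, rose by 0.32 ± 0.07 on the log2 scale from 6981, 6500 and 4874 to 8493, 7761 and 5716. Rpl11, a subunit that can bind Mdm2 (0.32 ± 0.08), Rps3a1 (0.28), Rps19, the subunit first linked to Diamond-Blackfan anemia (0.27), and Rpl18 also passed. Only Rps14 kept its call without run 3, and the count was 3 without run 1 and 2 without run 2. With only these 2 classes in the fit 28 members passed, 27 of them higher. Without the block 0 did. Ribosome biogenesis genes had 0 calls of 60, mitochondrial ribosomal protein genes 4 higher of 78, and Eef2, which moves the ribosome along the message, rose by 0.38 ± 0.09.

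Cells of the resting γδ gate held less of many members than those of the resting DN3 gate. In run 2 both gates hold cells sorted as DN1 and DN2 without surface TCRγδ. Of the 84, 26 were lower and 0 higher (31%, against 25.3% of all genes, 12.5% higher and 12.8% lower), with a median of -0.16 beside -0.06 for all genes. Under DESeq2's size factors the split was 1 higher and 13 lower, and with library totals 3 and 21. The members lay 0.09 to 0.10 below the median of all genes, a gap that the choice of scaling hardly changes by construction. Without run 1 the split was 7 higher and 12 lower, so which members pass, and in which direction, rests in part on that run. The count was 10, all 10 lower, without run 2, the run whose sort excluded surface TCRγδ. It was 6 without run 3, 2 without the block and 16 (2 higher, 14 lower) with the DESeq2 test.

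Rps27l and Rps14 had the lowest estimates of the members tested. Rps14 had 6774, 6214 and 5528 CPM in γδ cells, below each of the DN3 values of 8007 to 10560 (-0.64 ± 0.07, adjusted p = 1.08e-07, edgeR). Rps27l had 387, 291 and 164 against 536, 619 and 270 (-0.83 ± 0.12, adjusted p = 1.62e-06, edgeR). Rpl3, which shapes the peptidyl transferase center, had 5121, 3298 and 1858 against 6236, 4768 and 2964 (-0.55 ± 0.09), and Rps19 7357, 5966 and 3630 against 9594, 7940 and 5445 (-0.52 ± 0.08). Rps2 had 2868, 2668 and 2579 in γδ cells, the lowest of its levels among the resting classes plotted, with a log2 change of -0.50 ± 0.11, and it lost the call without run 3. Rpl36a (-0.36), Rpl22l1 (-0.30) and Rplp0 (-0.28) passed in the full fit but each lost the call without run 2 and without run 3. Rpl22 (0.10), Rps27 (0.10), Rpl10 (0.16) and Rplp1 (0.16) were estimated above 0 and did not pass, but without run 1 Rps27 (0.30), Rplp1 (0.32) and Rpl10 (0.26) passed as higher in γδ cells.

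Of the ribosome biogenesis genes 25 of 60 were lower and 1 (Ubtf, a factor of RNA polymerase I) higher, with a median of -0.43, and Wdr12 (-1.21 ± 0.23), Gnl3 (-0.90) and Tsr1 (-0.89) led. Among 21 growth regulators 1 was higher, Rps6ka1, a kinase of the Rps6k family (1.10 ± 0.19), and 6 were lower. Myc, a driver of ribosome synthesis, was lower by 1.45 ± 0.19 on the log2 scale, Larp1 by 0.99 ± 0.21 and Cdkn1a by 3.73 ± 0.53. Mitochondrial ribosomal protein genes had 20 lower and 2 higher of 78, and translation factors 9 lower and 2 higher of 50. Both DN3 and γδ cells here had at most 1 of the cell cycle genes detected, and γδ cells had 1.09, 0.703 and 0.828 times the median UMIs of DN3 cells.

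**Figure D4:**
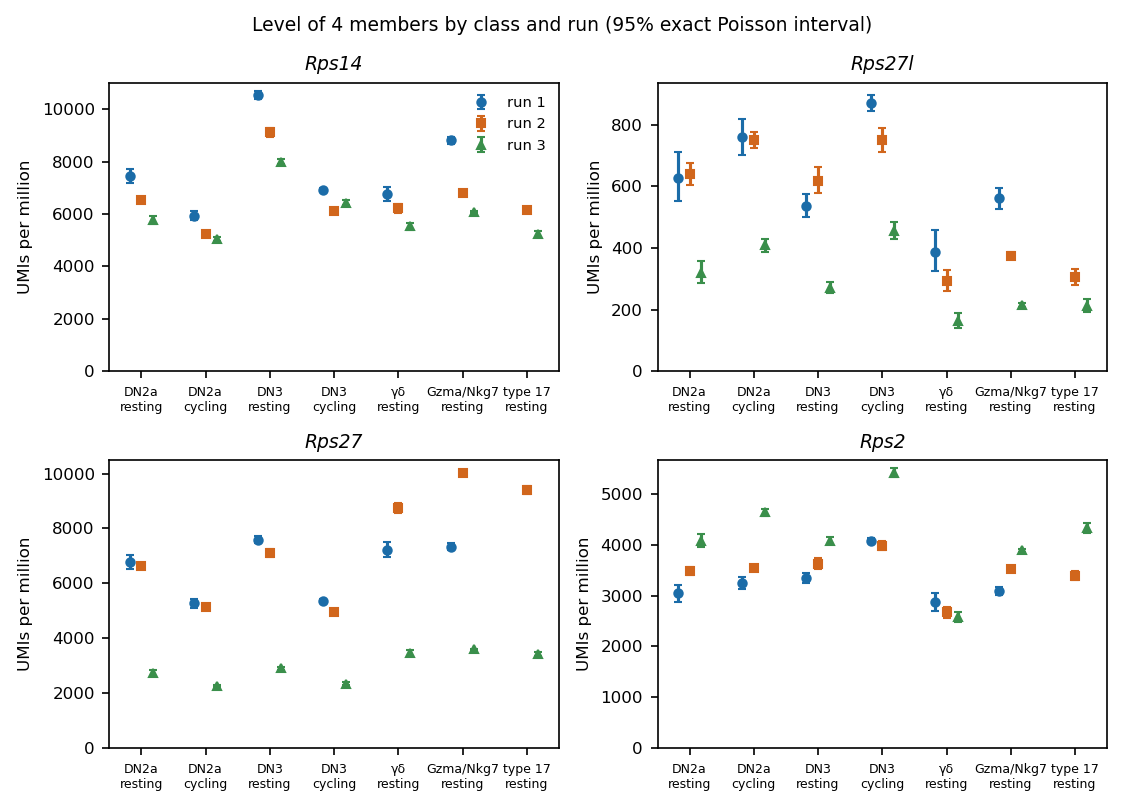
CPM (vertical axes, from 0) of Rps14, Rps27l, Rps27 and Rps2 in 7 stage and cycle classes (horizontal axes), with color and shape for the run and bars for the 95% exact Poisson interval. Rps14 peaks in resting DN3 cells in each run, Rps27l is lower in resting γδ cells than in resting DN3 cells in each run, and Rps27 lies far lower in run 3 than in runs 1 and 2 in every class.

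The Gzma/Nkg7 class at rest held 30.37%, 33.68% and 32.27% of its UMIs in ribosomal protein genes, 0.994, 3.19 and 1.91 points above resting γδ cells of the same run. Of the 84 members 13 were higher and 0 lower (15.5%, against 8.24% of all genes, 4.24% higher and 4% lower), with a median of 0.14 beside 0.02. Rps27l (0.51 ± 0.11), Rps2 (0.44 ± 0.11), Rpl3 (0.41 ± 0.09), Rpl38 (0.35 ± 0.09) and Rps19 (0.32 ± 0.08) led, and 26 members passed without run 1, 0 without run 2, 0 without run 3 and 0 without the block. Since this class mixes cells with and without NK-receptor genes, a narrow gate of at least 2 of Ccl5, Klrd1, Il2rb, Xcl1 and Klrb1c was added after the values were seen, with the cells left out going to the other gates. Of the 543, 3092 and 2144 resting cells of the Gzma/Nkg7 class in runs 1 to 3, this gate kept 17, 1940 and 986. The make-up of the class thus differs between the runs, and its part in the share differences was not tested.

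The narrow NK-receptor class had 1940 resting cells in run 2 and 986 in run 3, and too few in run 1. This class is defined by transcripts, while the paper's gating excluded cells with surface NK1.1. It held 35.08% (35.04% to 35.12%) and 33.63% (33.6% to 33.67%) of its UMIs in ribosomal protein genes, beside 30.28% and 30.49% in the resting γδ cells gated with it, of which those of run 2 come from a sort without surface TCRγδ. These are differences of 4.8 and 3.15 points, and with 2 runs the exact sign-flip test cannot go below p = 0.5. Cells of the class had medians of 982 and 1865 ribosomal protein UMIs, next to 879 and 1887 in γδ cells, but only 1763 and 3696 other UMIs, next to 2073 and 4414. The higher share thus went with fewer UMIs of other genes more than with more ribosomal protein UMIs.

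Of the 84 members tested with these gates (Rpl3l passed the filter here and Rpl39l did not) 63 were higher and 0 lower in the narrow class (75%, against 32.7% of all 10857 genes, 17.2% higher and 15.5% lower), with a median of 0.43 beside 0.01. Leaving out run 1, which held no sum of this class, left the count at 63. Without run 2 or run 3 the class rests on 1 library. The counts of those fits are no check on the 63 calls. Scaling mattered for the size: with library totals 43 were higher and 10 lower, with medians of -0.23 for all genes and 0.18 for members. Members lay 0.41 to 0.42 above the median of all genes, a gap that the choice of scaling hardly changes by construction. Rps21, a small subunit protein, had 1580 and 3503 CPM in γδ and 2574 and 5572 in the narrow class, a difference of 0.70 and 0.67 in log2 CPM and of 0.99 ± 0.12 after TMM scaling. Rpl38, a large subunit protein known for its part in translating Hox messages, had 3031 and 2796 against 4672 and 4357 (0.91 ± 0.09), and Rps27 8560 and 3382 against 12130 and 4402 (0.77 ± 0.10). Rps23, at the decoding center, rose by 0.75 ± 0.10 on the log2 scale. Rps2 was also among those that rose, while Rps27l (-0.09 ± 0.14), Rplp0 (0.08 ± 0.09), Rpl10 (0.05 ± 0.09) and Rpl7 (0.15 ± 0.10) did not pass. Rps27l was thus the leading member with the fixed gate and not past the test with the narrow one. Of the ribosome biogenesis genes 28 of 60 were higher and 1 lower, led by Bysl (1.38 ± 0.20), of the translation factors 15 of 50 higher and 1 lower, and of 21 growth regulators 7 higher and 1 lower. Larp1b (2.26 ± 0.39), Eif4ebp1 (1.54 ± 0.24) and Myc (0.85 ± 0.24 on the log2 scale) were among those higher. Mycn was the one lower (-1.05 ± 0.35). Mitochondrial ribosomal protein genes had 10 higher and 2 lower of 78, with a median of 0.08.

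Across classes, most standard subunits stayed within a narrow band. Within a run the highest class exceeded the lowest by a median of 1.25-fold, 1.3-fold and 1.28-fold over the 77 subunits, and by more than 2-fold for 0, 1 and 1 of them. The widest were Rps14 in run 1 (1.78-fold), Rps27 in run 2 (2.03-fold) and Rps2 in run 3 (2.1-fold). The narrowest were Rpl35 (1.12-fold), Rps4x, the X-linked small subunit gene (1.11-fold), and Rpl35a (1.1-fold).

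The genes outside the family with the highest positive correlation with the summed share over the 31 sums of a class and run were Ccnd2, Btg1, Rabac1, Btg2 and Psmb10, with Pearson r of 0.73, 0.69, 0.69, 0.68 and 0.68 among 1372 genes with at least 100 CPM on average. With each run centered on its own mean, r was 0.76, 0.68, 0.70, 0.71 and 0.66, and these genes ranked 2, 8, 4, 3 and 12. Negative correlations were larger in size, with -0.83 for H2afv and -0.80 for each of Tmed10, Arl6ip1 and Ccnb2. The sums share libraries and depth, and the highest value of many genes is always large, so these are descriptions only.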

How the data were processed

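Thymocytes of 3 runs, each pooled from 4 thymi, were measured by 10x Genomics 3' sequencing. The authors made the deposited UMI counts per gene and cell with Cell Ranger on mm10, version 4.0.0 per the file headers in the third run, and the submitters' processing notes also name R 3.6.3 and Seurat 2.3. Which kit and Cell Ranger version made the first and second runs is not given in the sources used here.

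Cells with 500 to 5000 genes and at most 7% mt- counts were kept, and doublets were not removed. Stage gates read UMIs of stage, cell type and 10 cell cycle genes, and these 55 genes were left out of the tests. Counts were summed for each gate, cycle class and run with at least 50 cells, for classes so present in at least 2 runs, which gave 31 sums with 18 residual degrees of freedom. edgeR 4.0.16 (R 4.3.3) was fitted to all of them with TMM, filterByExpr and the run as a block, since classes of a run come from 1 library, and p-values were adjusted by Benjamini-Hochberg over all genes tested with a threshold of 0.05. Pooled shares have 95% Clopper-Pearson intervals. In data simulated for each of the 5 comparisons the changed genes were drawn at random from all genes tested, whatever their level. The edgeR step recovered 42 to 67 of 100 genes changed 2-fold and 1 to 8 of 100 changed 1.25-fold. These rates are not those of the members, whose recovery was not simulated apart. False calls were 9 of 54 for resting DN3 against DN2a and 6 of 63 for DN2a cycling against resting. They were 1 of 76 for DN3 cycling against resting, 3 of 59 for γδ against DN3 and 3 of 54 for Gzma/Nkg7 against γδ. The share of false calls could thus exceed the threshold of 0.05. Genes were named by rule: in each comparison the 5 largest increases and 5 largest decreases among members called with 1 sign in all runs, a set list of paralogs and P-stalk genes, and the 3 largest changes in each direction of 4 pathway lists. Not every gene that the rule picked is named. Of 87 members 86 had a GENCODE M21 record (GRCm38). Alternatives were DESeq2 1.42.0 and its size factors, library totals, no filter, other cell limits and gates, high Scrublet scores left out, and each run left out. The members, gene lists and tests were chosen with earlier results of these data known, and the narrow gate and the contrast of the cycle differences after seeing the data.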

Additional observations from a re-analysis of the deposited data

Results flagged for a closer look

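The ribosomal protein share in cycling minus resting DN3 cells was -2.23 points in run 1 and -4.21 in run 2 but 0.52 in run 3, so that the sign differs between runs with the fixed gates. The value of run 3 was -0.32 with the narrow NK-receptor gate and -0.47 with 2 UMIs asked of a gate gene, so its sign depends on the gate. The difference between the runs was not tested, and run and sort cannot be told apart. Rows with -ps symbols of ribosomal protein genes, which the comparisons do not use, held 0.591%, 0.325% and 0.0172% of UMIs in runs 1, 2 and 3.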

How the results depend on the processing

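The sign of the 5 mean share differences was kept under every alternative run, and with 1 run left out they ranged from -3.22 to -0.86 (DN3 cycling minus resting), -2.58 to -1.38 (DN2a cycling minus resting), 1.33 to 2.48 (DN3 minus DN2a), -2.86 to -1.86 (γδ minus DN3) and 1.45 to 2.55 points (Gzma/Nkg7 minus γδ). The DN2a cycle difference moved to -3.28 with gates thinned to 2000 UMIs, and the Gzma/Nkg7 difference to 3.97 with the narrow gate. Each of these is a mean over runs 2 and 3 only. Within these runs the DN2a cycle difference was -4.25 and -2.32 points with thinned gates, beside -3.20 and -0.79 with the fixed gates. With thinned gates the DN3 cycle difference lacks run 3, the run of opposite sign with the fixed gates. The numbers of members called were less stable, and the cause was not tested. The fits with no replicate block set aside the pairing of classes within a run, so their counts are no check on within-run differences. For DN3 cycling against resting (22) they were 34 with library totals, 9 with only the 2 classes fitted, 0 with no replicate block, 7 with thinned gates, 13 with 2 UMIs for a gate gene, 40 with the narrow gate and library totals, 7 to 21 with a run left out and 13 with the narrow gate and without run 3. For DN2a cycling against resting (3) they were 5 with DESeq2 size factors, 19 with library totals, 32 with only the 2 classes, 0 with no replicate block, with thinned gates and with 2 UMIs, 1 without high doublet scores, 28 and 9 with the narrow gate and library totals or size factors, 0 to 3 with a run left out and 0 with the narrow gate and without run 2. For DN3 against DN2a (6) they were 2 with no filter, 28 with only the 2 classes, 0 with no replicate block, 1 without high doublet scores, 1 to 3 with a run left out and, with the narrow gate, 3 without run 1 and 1 without run 3. For γδ against DN3 (26) they were 14 with size factors and with thinned gates, 16 with the DESeq2 test and with 2 UMIs, 13 with no filter and with only the 2 classes, 2 with no replicate block, 12 without high doublet scores, 6 to 19 with a run left out and, with the narrow gate, 12 without run 2 and 16 without run 3. For the Gzma/Nkg7 class against γδ (13) they were 25 with no filter, 4 with only the 2 classes, 0 with no replicate block, 20 with 2 UMIs and 0 to 26 with a run left out, and with the narrow gate 63, 53 with library totals, 67 with size factors, and 63, 53 and 66 without runs 1, 2 and 3. Run 1 held no sum of the narrow class, so without run 2 or run 3 the class rests on 1 library. The 53 and 66 calls of those fits thus do not show that the 63 calls are stable. With the narrow gate Rps27l reversed to -0.09, to -0.34 with library totals and to -0.06 with size factors. Its estimates were -0.01, -0.02 and -0.17 without runs 1, 2 and 3, of which the last 2 rest on 1 library of the class. Rplp0 and Rpl10 reversed to -0.18 and -0.21 with the narrow gate and library totals. The contrast of the cycle differences called 0 members in all 17 alternatives fitted and was not fitted with thinned gates or with only the 2 classes. Changes well under 2-fold are at the limit of what 3 runs can show.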
